A study of Mus musculus with 8 samples.

Results

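The aldehyde dehydrogenase (Aldh), alcohol dehydrogenase (Adh) and hydroxysteroid dehydrogenase (Hsd) genes were examined in the renal cortex of aged and young mice. Members were taken by their symbols in the table of counts, with Hsd11b2 and Hsd17b7 left out by name, and 42 of its 22609 genes met this rule, 20 of them Aldh, 4 Adh and 18 Hsd genes. Of the 42, 32 had at least 10 counts in 4 or more of the 8 libraries (18 Aldh, 3 Adh and 11 Hsd genes), and changes with age are given for these. RNA-Seq was performed on kidney cortex of 4 aged mice (30 months by the sample labels) and 4 young mice (about 5 months), with 1 library per mouse. All 8 were male, untreated animals of the C57BL6 strain, so the groups differed by age alone among the features that the labels give. RNA was extracted with TRIzol and freed of ribosomal RNA, and strand-marked libraries were read from both ends over 100 bases. A whole piece of cortex was sequenced, and in such bulk samples fewer cells of a type and less RNA per cell cannot be told apart.

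These enzymes move hydride between an alcohol, aldehyde or steroid and a nicotinamide cofactor. Alcohol dehydrogenases oxidise retinol and ethanol to aldehydes, and aldehyde dehydrogenases carry the aldehydes on to acids, which makes retinoic acid from retinaldehyde and clears aldehydes that arise from lipids, amino acids and folate. Hydroxysteroid dehydrogenases set the activity of steroid hormones, although several enzymes that carry the name act mainly on fatty acids. The proximal tubule, the most abundant segment of the cortex, is rich in enzymes of this kind.

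The results turned on Aldh1a1 and Aldh1a7, a pair of neighbouring paralogues on chromosome 19. In NCBIM37 (mm9), Aldh1a1 (ENSMUSG00000053279.6) lies on the plus strand at chr19:20676451-20717952, and Aldh1a7 (ENSMUSG00000024747.3) lies on the minus strand at chr19:20767443-20802052. Their coding sequences of 1506 bases were identical at 1380 positions (91.6%). A stretch of coding bases 317 to 376 in exon 4 of 13 is shown because it holds many of the differences by which reads of the paralogues are told apart. Capitals mark the 16 of 60 bases that differ.
Aldh1a1, chr19:20694463-20694522, plus strand, NCBIM37: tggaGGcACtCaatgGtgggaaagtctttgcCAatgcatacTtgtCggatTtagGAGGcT
Aldh1a7, chr19:20793742-20793801, minus strand, NCBIM37: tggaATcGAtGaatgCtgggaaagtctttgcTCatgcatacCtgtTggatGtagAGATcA
Over the coding sequence, 1 of 1407 aligned windows of 100 bases was identical in both genes, and the median window held 7 differences. In the whole transcripts, 2.61% of the 100-base windows of Aldh1a1 and 2.54% of those of Aldh1a7 fell in a stretch with a match of 98% identity or more at another place in the genome.

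The upstream sequences of the pair are shown because the genes moved together with age. They are the 250 bases before the annotated start in RefSeq (GRCm38.p6), and capitals mark matches, on either strand, to any of 5 motifs. These were the TATA box searched as TATAAA, the CCAAT box searched as CCAAT, the E-box of clock factors searched as CACGTG, the half-site of nuclear receptors searched as AGGTCA and the AP-1 motif searched as TGANTCA.
Aldh1a1, chr19:20601718-20601967, plus strand, GRCm38.p6: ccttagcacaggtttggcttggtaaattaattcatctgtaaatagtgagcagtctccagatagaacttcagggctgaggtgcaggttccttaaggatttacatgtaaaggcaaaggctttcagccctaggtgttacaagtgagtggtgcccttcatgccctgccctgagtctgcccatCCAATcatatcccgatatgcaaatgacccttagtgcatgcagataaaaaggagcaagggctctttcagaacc
Aldh1a7, chr19:20727557-20727806, minus strand, GRCm38.p6: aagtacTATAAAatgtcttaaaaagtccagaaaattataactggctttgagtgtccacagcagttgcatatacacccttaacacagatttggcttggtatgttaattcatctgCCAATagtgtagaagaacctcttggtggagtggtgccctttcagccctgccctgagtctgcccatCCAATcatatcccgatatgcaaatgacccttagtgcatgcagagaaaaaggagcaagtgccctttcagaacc
The last 100 bases before the start were identical at 94 positions, and the whole 250 bases, set side by side without gaps, at 129 (51.6%). With gaps allowed, 161 of 246 aligned positions were identical (65.45%). Both windows held a CCAAT match 72 bases before the start, and Aldh1a7 held another at 137 bases and TATAAA at 244 bases. CCAAT was found in 33.9% and TATAAA in 12.4% of 32851 windows of the same length. CACGTG (6.02% of windows), AGGTCA (14.02%) and TGANTCA (6.75%) had no match in either window. RefSeq lists another start of Aldh1a1, whose window at chr19:20492333-20492582 held TGANTCA 57 bases before that start.

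Between 14820804 and 19821429 read pairs per library were counted on genes, and 3 counts, taken as the floor, corresponded to 0.151 to 0.202 CPM, a read count scaled to the size of its library. Defining markers of the proximal tubule, Slc34a1, Lrp2 and Slc5a2 among them, were above 0 in every library. Library 1 of the aged group stood apart from the others (-71.5 on a first principal component that held 48.2% of the variance, the next lowest being -16.3), so results that rest on it are given with and without it. Of the genes tested, 163 were called higher in aged mice and 124 lower, and with scaling to library size only 368 and 120. For a call, edgeR's quasi-likelihood test over 13944 genes had to give more than a 1.5-fold change and an adjusted p (Benjamini-Hochberg) under 0.05. The members took 0.658% ± 0.0271 of all counts in aged mice against 0.654% ± 0.0113 in young mice (SD, n = 4 each, two-sided exact permutation test, p = 0.914).

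Few of these genes were called as changed with age. Aldh1a1 and Aldh1a7 were called higher in aged mice, which is 2 of 32 members beside 1.17% of all genes tested, and 0 of 32 were called lower beside 0.889%. DESeq2 and limma-voom each called the same 2 higher and Adh1 lower. Over all genes DESeq2 called 486 higher and 387 lower and limma-voom 238 and 245, more than the 163 and 124 of edgeR. These totals are the background of each DESeq2 and limma-voom call given below. By edgeR without adjustment, 9 of the 32 had a p below 0.05, 6 of them higher and 3 lower, beside 25.5% of all genes. The aged mice all lay above the young mice in 5 members (8.85% of all genes did so) and all below them in 3 members (10% of all genes). The median log2 fold change was -0.07 over the 32 members and 0.03 over all genes. It lay above 0 in 13 members and below 0 in 19, and in 25 its size was under 0.5. Under scaling by library size alone the median of all genes shifted by 0.11, and the members' median was then 0.04.

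**Figure D1:**
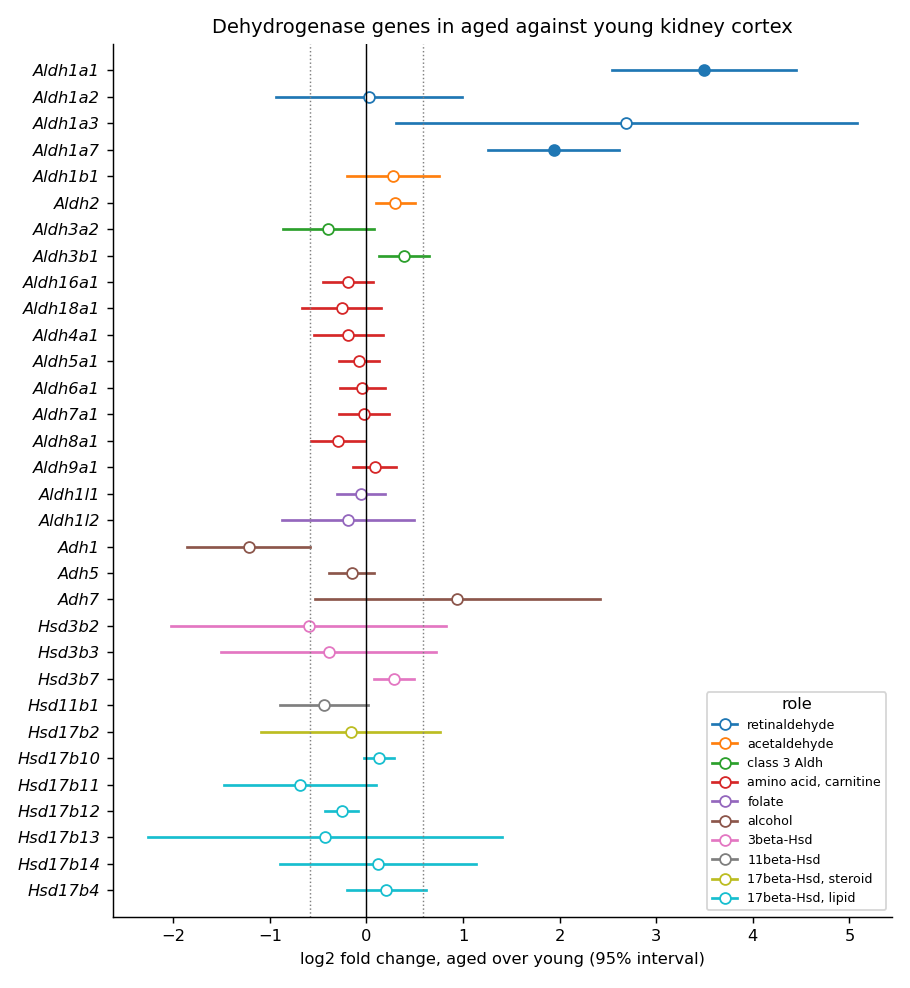
The log2 fold change of each of the 32 members, aged over young, is drawn on the horizontal axis with its 95% interval from edgeR, coloured by role. Filled points mark the called genes Aldh1a1 (3.50) and Aldh1a7 (1.94), and dotted lines mark a 1.5-fold change. Most points lie near 0, with Adh1 (-1.22) the farthest below it.

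Among the Aldh1a genes, Aldh1a1 and Aldh1a7 rose in all 4 aged mice. Aldh1a1, the cytosolic enzyme that oxidises retinaldehyde to retinoic acid, had 3847, 1276, 1739 and 832 counts in aged mice 1 to 4 against 146, 123, 175 and 154 counts in young mice 1 to 4. After normalization with edgeR's TMM factors these were 103 ± 61.1 CPM in aged and 9.13 ± 2.20 CPM in young mice (SD, n = 4 each). The groups were far apart, with the lowest aged mouse, number 4, at 45.3 CPM and the highest young mouse, number 3, at 11.9 CPM. Against the young mean the aged mice stood 20.7, 9.10, 10.2 and 4.97 times higher. This gave a log2 fold change of 3.50 with a standard error (SE) of 0.42 (edgeR adjusted p = 0.0125). It was 3.02 with an adjusted p of 0.00497 by edgeR without aged mouse 1. The call was lost without young mouse 1, 3 or 4 (edgeR adjusted p = 0.0632, 0.0539 and 0.0633), while the log2 fold change stayed between 3.49 and 3.65.

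Aldh1a7, the rodent paralogue of Aldh1a1, had 2185, 1088, 1268 and 702 counts in aged mice 1 to 4 against 320, 249, 349 and 300 counts in young mice 1 to 4. This amounted to 71.0 ± 28.3 CPM in aged and 18.6 ± 4.39 CPM in young mice (SD, n = 4 each). Mouse 1 was again the highest and mouse 4 the lowest of the aged group, and no aged mouse reached down to the young range. Its change on the log2 scale was 1.94 (SE 0.30, edgeR adjusted p = 0.0251), and 1.67 without aged mouse 1 (edgeR adjusted p = 0.0153). Its call was lost with the removal of each young mouse in turn, with edgeR adjusted p between 0.0731 and 0.102 and log2 fold changes between 1.81 and 2.08.

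The pair did not rise by the same factor. Young mice held 0.491 ± 0.0247 counts of Aldh1a1 for each count of Aldh1a7, and aged mice 1.37 ± 0.274 (SD, n = 4 each). Each aged ratio, from 1.17 to 1.76, lay above every young ratio, from 0.456 to 0.513, and the mean log2 ratio differed by 1.46. The two-sided exact permutation test gave p = 0.0286, the smallest that 4 mice against 4 allow. Both genes were already called on these same counts with different log2 fold changes, so this p is not independent of those calls. Pairs that aligned at several places were not counted on genes. The ratio therefore rests on pairs placed in a single gene, and it depends on how well the alignment told the paralogues apart.

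The other Aldh1a genes were not called. Aldh1a2, the enzyme best known for retinoic acid synthesis in the embryo, stood at 9.29 ± 4.69 CPM in aged and 9.09 ± 3.03 CPM in young mice (SD, n = 4 each), a log2 fold change of 0.03 with a 95% interval from -0.93 to 0.99. Aldh1a3, the third enzyme of this kind, stood at 32.1, 1.69, 1.55 and 1.96 CPM in aged mice 1 to 4 against 0.816 to 1.90 CPM in the young group. Aged mouse 1 alone was high, and the others overlapped the young range. The fit gave 2.69 on the log2 scale (edgeR adjusted p = 0.156) and was 0.26 without that mouse (edgeR adjusted p = 0.614).

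**Figure D2:**
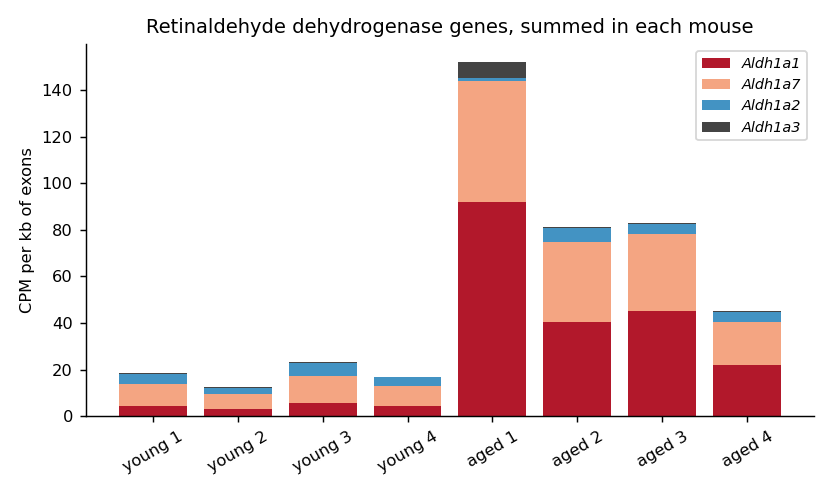
Bars give the level per length, in CPM per kilobase of exons, of the 4 Aldh1a genes stacked in each mouse. The stacks reach 12.4 to 23.1 in young and 45.3 to 152 in aged mice, and the share of Aldh1a1 is 23.6 to 26.1% in young and 48.7 to 60.5% in aged mice.

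Levels of different genes were compared per kilobase of their exons. On that scale Aldh1a7 was the most abundant Aldh1a gene in all 4 young mice, with 49.6 to 51.5% of the sum, and Aldh1a1 the most abundant in all 4 aged mice. Aldh1a2 made up 19.8 to 24.5% of the sum in young and 0.841 to 9.46% in aged mice, while its own level overlapped between the groups. The 4 genes together reached 152, 81.3, 83.0 and 45.3 CPM per kilobase in aged mice 1 to 4 against 18.6, 12.4, 23.1 and 16.97 in young mice 1 to 4. The plot of this sum by mouse shows no overlap between the groups.

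Among the alcohol dehydrogenases, Adh1 was lower in each aged mouse than in any young mouse but missed the adjusted threshold. Adh1, the class I enzyme that oxidises ethanol and retinol, lies at chr3:137923955-137953662 on the plus strand (NCBIM37). It stood at 161, 189.5, 175 and 345 CPM in aged mice 1 to 4 against 576, 676, 388 and 387 CPM in young mice 1 to 4. Aged mouse 4 was much nearer to the young range than the other 3, and young mice 1 and 2 were above young mice 3 and 4. On the log2 scale the change was -1.22 (SE 0.28, 95% interval -1.86 to -0.58, edgeR adjusted p = 0.0542). Adh1 was called lower by DESeq2 (adjusted p = 0.000588), by limma-voom with quality weights (adjusted p = 0.0405), with scaling to library size only (edgeR adjusted p = 0.0426) and without aged mouse 4 (log2 fold change -1.53, edgeR adjusted p = 0.00883).

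Adh5, the class III enzyme that clears formaldehyde bound to glutathione, stood at 158 ± 19.7 CPM in aged and 175 ± 10.8 CPM in young mice (SD, n = 4 each), a log2 fold change of -0.15 with a 95% interval from -0.39 to 0.08. Adh7, the class IV enzyme known from stomach and other epithelia, was near the floor, with 45, 10, 12 and 11 counts in aged mice 1 to 4 against 6, 2, 15 and 12 counts in young mice 1 to 4. It reached 10 counts in 4 aged and 2 young libraries. On the log2 scale it differed by 0.94 with a 95% interval from -0.53 to 2.42, and 0.23 without aged mouse 1.

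In the wider retinoid pathway a few genes were called, in both directions. Of 35 listed genes for retinoid transport, storage, conversion and receptors, 25 could be tested, 2 were called higher and 1 lower (1.17% and 0.889% of all genes were), and the median log2 fold change was 0.02. DESeq2 called the same 3 and also Rdh16 higher and Rdh5 lower, while limma-voom called the same 3. Stra6, the cell-surface receptor that takes up retinol from its carrier, stood at 10.6, 13.7, 8.93 and 3.27 CPM in aged mice 1 to 4 against 1.00 to 2.01 CPM in the young group. No aged mouse overlapped the young range, and mouse 4 was again the lowest of the aged group. This was a log2 fold change of 2.70 (SE 0.44, edgeR adjusted p = 0.0267).

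Lrat, which esterifies retinol for storage, stood at 16.7, 25.3, 10.8 and 10.9 CPM in aged mice 1 to 4 against 4.44 to 7.56 CPM in the young group. Its log2 fold change was 1.40 (SE 0.31), and its adjusted p of 0.0499 from edgeR lay just under the threshold and ranged up to 0.142 over the alternatives. Lrat was called in only 5 of 18 alternatives, against 13 for Stra6 and 11 for Ttr. Ttr, the thyroxine carrier that binds retinol-binding protein in plasma, was lower, at 8.40, 8.39, 7.75 and 23.3 CPM in aged mice 1 to 4 against 37.4 to 69.6 CPM in the young group. Aged mouse 4 was highest of its group and still below the young range. This was a log2 fold change of -2.02 (SE 0.38, edgeR adjusted p = 0.0390). The calls of Stra6 and Ttr were both lost without aged mouse 3 or any 1 of the young mice, and that of Ttr also without aged mouse 2, with edgeR adjusted p up to 0.103 for Stra6 and 0.108 for Ttr.

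**Figure D3:**
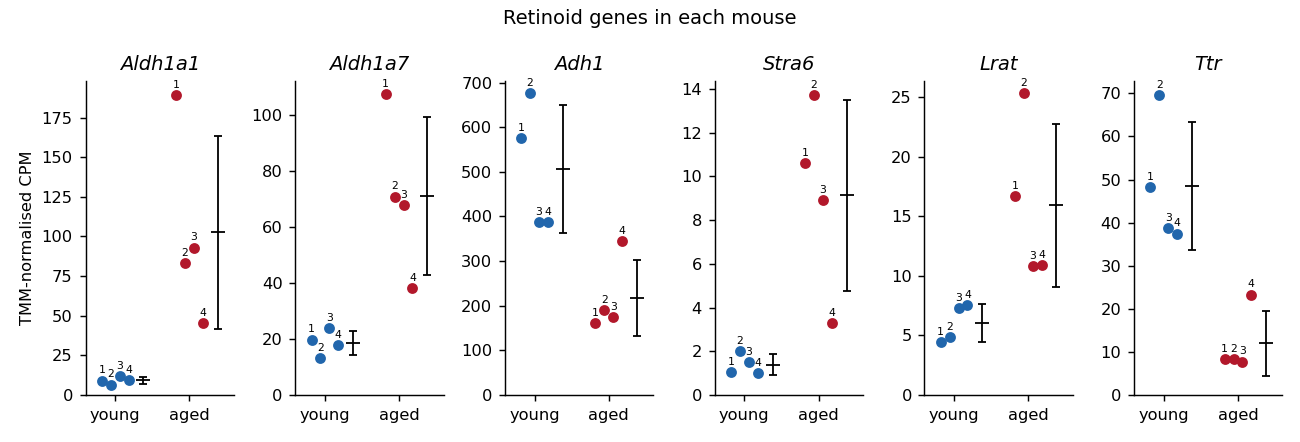
Each point is a mouse, numbered within its group, with TMM-normalised CPM on a vertical axis from 0 for each gene and bars at the mean ± SD (n = 4). The aged and young mice do not overlap in any of the 6 genes, and aged mouse 4 lies nearest to the young range for Aldh1a1, Aldh1a7, Adh1, Stra6 and Ttr.

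Some markers of other cell types moved in the same libraries. The summed level of 8 adipocyte markers was 576, 158, 43.5 and 98.02 CPM in aged mice 1 to 4 against 30.5 to 74.7 CPM in the young group, and Adipoq, which defines fat cells, stood at 37.6, 10.02, 1.55 and 6.10 CPM in aged and 0.204 to 2.60 CPM in young mice. All 7 of the 8 that could be tested had a p below 0.05 in edgeR before adjustment and edgeR called none, DESeq2 called 3 higher (Adipoq, Cfd and Retn) and limma-voom called 0. Aldh1a1 (189 CPM) and Aldh1a7 (107 CPM) were highest in aged mouse 1, which also had the highest adipocyte sum. In aged mouse 3, where the adipocyte sum lay within the young range, Aldh1a1 stood at 92.9 CPM and Aldh1a7 at 67.8 CPM. Both were above every young mouse. The part of fat cells in the rise of the pair was not tested. Lymphocyte and plasma cell markers (9 genes) summed to 37.2 to 102 CPM in aged and 8.62 to 19.2 CPM in young mice, with Igj called higher. Their part in the result was not tested. Proximal tubule markers of segments S1 and S2 (12 genes) summed to 12291 CPM in aged mouse 1 but to 24024 to 26679 CPM in the other aged mice, within the 23435 to 28298 CPM of the young mice. Markers of segment S3 (8 genes) summed to 4938 to 7990 CPM in aged and 7774 to 9860.0 CPM in young mice. In edgeR 5 of these 8 had a p below 0.05 before adjustment, all lower, beside 25.5% of all genes. Of the 12 S1 and S2 markers 3 had such a p, 1 higher and 2 lower. No marker of either list was called by edgeR. DESeq2 called Napsa, Slc22a7 and Slc5a1 of S3 lower, and limma-voom Slc22a7. Both tools called Slc22a6 of S1 and S2 lower and Slc5a12 higher. The part of either list's segments in the lower Adh1 was not tested.

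The mitochondrial aldehyde dehydrogenases moved little. Aldh2, which oxidises acetaldehyde and lipid aldehydes, stood at 887, 896, 815 and 805 CPM in aged mice 1 to 4 against 669, 689, 674 and 733 CPM in young mice 1 to 4. The groups did not overlap, but the difference was small, with a log2 fold change of 0.30 (SE 0.09, edgeR adjusted p = 0.0898). Aldh1b1, its mitochondrial relative, had a log2 fold change of 0.28 with a 95% interval from -0.20 to 0.75.

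Of the class 3 enzymes, which act on lipid and aromatic aldehydes, Aldh3b1 stood at 14.4, 14.5, 12.03 and 15.1 CPM in aged mice 1 to 4 against 10.6, 11.8, 10.8 and 9.63 CPM in young mice 1 to 4. The groups just failed to touch, and the log2 fold change was 0.39 (SE 0.11, edgeR adjusted p = 0.0901). Aldh3a2, the fatty aldehyde dehydrogenase of the endoplasmic reticulum, stood at 174, 197, 257 and 361 CPM in aged mice 1 to 4 against 299 to 349.6 CPM in young mice. Aged mouse 4 lay above the young range and the other 3 below it. Over all mice the log2 fold change was -0.39 (95% interval -0.86 to 0.07), and without aged mouse 4 it was -0.63 and was called (edgeR adjusted p = 0.0351).

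None of the 8 aldehyde dehydrogenases of amino acid and carnitine metabolism was called by edgeR, DESeq2 or limma-voom, and 1 (Aldh8a1) had an unadjusted p below 0.05 in edgeR, with log2 fold changes from -0.29 to 0.08. Aldh6a1, which oxidises methylmalonate semialdehyde from valine and thymine, stood at 1120.5, 1293, 1293 and 1405 CPM in aged mice 1 to 4 against 1267, 1288, 1338 and 1364 CPM in young mice 1 to 4. The groups overlapped, and the log2 fold change was -0.04 with a 95% interval from -0.28 to 0.19. Aldh9a1, which makes the precursor of carnitine, stood at 612, 516, 515 and 601 CPM in aged mice 1 to 4 against 511, 503, 554 and 548 CPM in young mice 1 to 4. Aged mice 1 and 4 were above the young range and the others within it, and the log2 fold change was 0.08 with a 95% interval from -0.13 to 0.30.

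Aldh8a1, which acts on 2-aminomuconate semialdehyde in the breakdown of tryptophan, stood at 257, 351, 301 and 385 CPM in aged mice 1 to 4 against 395, 391, 397 and 401 CPM in young mice 1 to 4. The young mice lay within a few units of each other and all aged mice lay below them. With a log2 fold change of -0.29 it did not pass the test (95% interval -0.57 to -0.01, edgeR adjusted p = 0.184). The log2 fold change was -0.19 for Aldh4a1 of proline breakdown, -0.26 for Aldh18a1 of proline synthesis, -0.08 for Aldh5a1 of succinate semialdehyde and -0.02 for Aldh7a1 of lysine breakdown. That of Aldh16a1, which lacks the catalytic cysteine, was -0.19. The 95% intervals of all 5 included 0 and stayed between -0.66 and 0.23.

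In the neighbouring steps of amino acid and carnitine breakdown, 34 of 40 listed genes could be tested, 1 was called higher and 0 lower (1.17% and 0.889% of all genes were), and the median log2 fold change was -0.01. In edgeR 12 of the 34 (35.3%) had a p below 0.05 before adjustment, beside 25.5% of all genes. DESeq2 called 4 higher (Kynu, Aox3, Bbox1 and Paox) and 1 lower (Ido2), and limma-voom 2 higher (Kynu and Bbox1) and 1 lower (Ido2). The gene that edgeR called was Kynu, the kynureninase of tryptophan breakdown, at 35.2, 66.9, 82.1 and 31.5 CPM in aged mice 1 to 4 against 7.58 to 14.7 CPM in the young group. The groups did not overlap, and aged mice 2 and 3 were the highest. Its log2 fold change was 2.33 (SE 0.34, edgeR adjusted p = 0.0217), and the call was lost with the removal of each young mouse in turn (edgeR adjusted p between 0.0586 and 0.102).

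The folate enzymes did not pass the test. Aldh1l1, the cytosolic dehydrogenase of formyltetrahydrofolate, stood at 623, 505, 505 and 635 CPM in aged mice 1 to 4 against 578, 614, 555 and 608 CPM in young mice 1 to 4. Aged mice 1 and 4 lay above the young range and aged mice 2 and 3 below it, and the log2 fold change was -0.06 with a 95% interval from -0.30 to 0.19. Aldh1l2, the mitochondrial form, had a log2 fold change of -0.19 with a 95% interval from -0.87 to 0.49. All 33 listed genes of folate one-carbon metabolism could be tested and none was called by edgeR, while 11 (33.3%) had a p below 0.05 in edgeR before adjustment, beside 25.5% of all genes. DESeq2 called 2 of them higher (Ftcd and Bhmt) and 1 lower (Slc46a1), and limma-voom called 0. The smallest p values were those of Ftcd, of histidine breakdown, with a log2 fold change of 0.64 (edgeR adjusted p = 0.0738), and of Gnmt, which methylates glycine, with 0.48 (edgeR adjusted p = 0.0811).

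Of the 3beta-hydroxysteroid dehydrogenases, Hsd3b2 and Hsd3b3 varied widely between aged mice and none was called. Hsd3b2 had 198, 1646, 2229 and 3434 counts in aged mice 1 to 4 against 2592, 3363, 2747 and 1953 counts in young mice 1 to 4. Hsd3b3, its neighbour on chromosome 3, had 257, 883, 1279 and 2023 counts in aged mice 1 to 4 against 1159, 1262, 1509 and 1439 counts in young mice 1 to 4. Aged mouse 1, in which the summed S1 and S2 markers were lowest, was far below all others for both genes. The part of these segments in that was not tested. The remaining aged mice overlapped the young range. The log2 fold change was -0.60 for Hsd3b2 (95% interval -2.02 to 0.83) and -0.39 for Hsd3b3 (95% interval -1.51 to 0.72). Without aged mouse 1 these were -0.21 and -0.048 (edgeR adjusted p = 0.566 and 0.915). Their coding sequences were identical at 95.1% of positions, and 26.1% of the windows of Hsd3b2 and 4.57% of those of Hsd3b3 lay inside a near-identical copy elsewhere in the genome, so their counts are uncertain to that extent.

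Hsd3b7, which acts in bile acid synthesis and not on steroid hormones, stood at 13.8, 15.3, 14.8 and 14.3 CPM in aged mice 1 to 4 against 12.8, 11.9, 11.3 and 11.8 CPM in young mice 1 to 4. The groups did not overlap, and the log2 fold change was 0.28 (SE 0.09, edgeR adjusted p = 0.105). Hsd11b1, which regenerates active glucocorticoid, stood at 78.6, 78.1, 56.7 and 54.7 CPM in aged mice 1 to 4 against 96.9, 104, 58.7 and 103 CPM in young mice 1 to 4. Young mouse 3 lay within the aged range and the other young mice above it, and the log2 fold change was -0.44 (95% interval -0.90 to 0.02).

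Of the enzymes named 17beta-hydroxysteroid dehydrogenases, Hsd17b12 was lower in each aged mouse than in any young mouse. Hsd17b12, a reductase of very-long-chain fatty acid elongation, stood at 74.5, 86.8, 72.9 and 81.6 CPM in aged mice 1 to 4 against 94.2, 90.1, 95.5 and 97.5 CPM in young mice 1 to 4. The gap was narrow, and the log2 fold change was -0.26 (SE 0.08, edgeR adjusted p = 0.0935). Hsd17b11, a protein of lipid droplets, stood at 194, 99.9, 168 and 385 CPM in aged mice 1 to 4 against 287 to 417 CPM in young mice. Aged mouse 4 lay within the young range and the other 3 below it. Over all mice the log2 fold change was -0.69 (95% interval -1.48 to 0.10), and without aged mouse 4 it was -1.15 and was called (edgeR adjusted p = 0.0278).

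Hsd17b4, the peroxisomal bifunctional enzyme of fatty acid oxidation, stood at 464 CPM in aged mouse 1 and at 263 to 281 CPM in the other aged mice, within the 259.7 to 291 CPM of the young mice. Its log2 fold change was 0.21, and -0.03 without aged mouse 1. The log2 fold change was 0.13 (95% interval -0.03 to 0.29) for the mitochondrial enzyme Hsd17b10 and 0.12 (95% interval -0.89 to 1.13) for Hsd17b14. Hsd17b2, which inactivates oestradiol and testosterone, had -0.16 (95% interval -1.09 to 0.76). Hsd17b13, a lipid droplet protein best known from liver, had 1 to 42 counts in aged and 3 to 37 counts in young libraries, reached 10 counts in 2 aged and 3 young libraries, and had a log2 fold change of -0.43 (95% interval -2.26 to 1.40).

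Of 30 listed genes of steroid synthesis, steroid conversion and steroid receptors, 21 could be tested and none was called by edgeR, while 7 (33.3%) had a p below 0.05 before adjustment, beside 25.5% of all genes. DESeq2 called 1 of them higher (Dhrs7) and 2 lower (Cyp7b1 and Esr1), and limma-voom called 0. The smallest p values were those of Fdx1, the electron carrier of mitochondrial steroid hydroxylases, with a log2 fold change of -0.41 (edgeR adjusted p = 0.0652), and of Dhrs7, a short-chain dehydrogenase, with 0.72 (edgeR adjusted p = 0.0656). Of 8 adrenal cortex markers, Cyp11a1, Cyp11b1, Cyp11b2, Cyp21a1 and Nr5a1 had 0 counts in at least 7 of the 8 libraries. The other 3, Star, Mc2r and Fdx1, were above 0 in every library. Star stood at 2.36 ± 0.981 CPM in aged and 1.74 ± 0.216 CPM in young mice (SD, n = 4 each). Mc2r stood at 0.768 ± 0.605 CPM in aged and 0.255 ± 0.0556 CPM in young mice (SD, n = 4 each). The sum of the 8 adrenal markers, to which Fdx1 contributed most, was 43.0 to 55.1 CPM in aged and 57.9 to 66.7 CPM in young mice.

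Per kilobase of exons, the most abundant member in young mice was Aldh6a1 (373 ± 12.7), followed by Adh1 (227 ± 64.4), Aldh9a1 (187 ± 9.03), Aldh2 (147 ± 6.20) and Aldh1l1 (131 ± 6.10 CPM per kilobase, SD, n = 4). Aldh6a1 lay above the next gene in every young mouse, Adh1 overlapped Aldh9a1, Aldh9a1 lay above Aldh2, and Aldh2 lay above Aldh1l1, which overlapped Aldh4a1 (115 ± 11.2). With the longest transcript in place of all exons, 4 of these 5 genes stayed among the highest 5. In aged mice Aldh6a1 (362 ± 33.3) was again the highest, with Aldh9a1 (198 ± 18.6) and Aldh2 (181 ± 10.1) next and not separated from each other. Adh1 was sixth among the aged means (97.5 ± 38.3 CPM per kilobase, SD, n = 4) and Aldh1a1 stood at 50.0 ± 29.8, from 4.44 ± 1.07 in young mice.

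**Figure D4:**
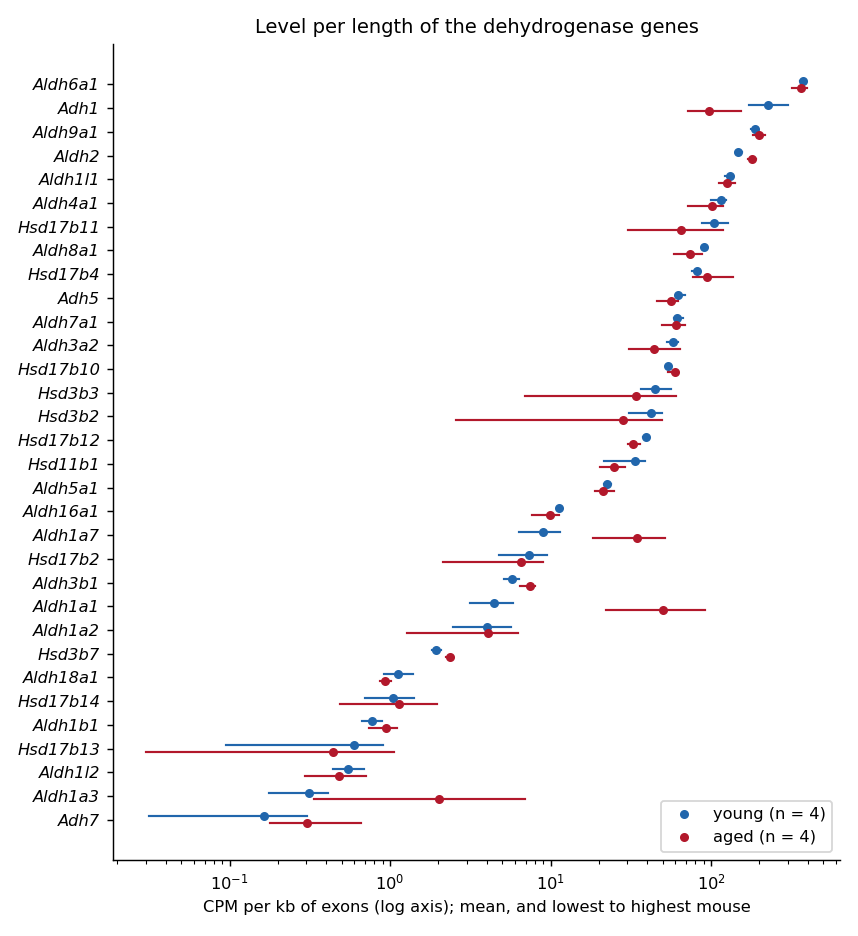
Points give the mean level per length (CPM per kilobase of exons, log axis) of the 32 members in young and aged mice, and lines run from the lowest to the highest mouse (n = 4 each). The order by young level runs from Aldh6a1 (373) down to Adh7 (0.164), and the lines of Aldh1a1 and Aldh1a7 in aged mice lie well above those in young mice.

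The aged mice differed from each other in how many members moved. In aged mouse 1, 9 of the 32 members lay more than 2-fold from the young mean, 4 higher and 5 lower, and the numbers for aged mice 2, 3 and 4 were 5, 6 and 2. In young mice, which make up that mean, it was 0 or 1. The same count over all genes was not made for each mouse, so these numbers are not read as particular to the members. Aldh1a1 and Aldh1a7 were the only members beyond 2-fold in all 4 aged mice, and Adh1 was beyond it in aged mice 1 to 3. Hsd3b2, Hsd3b3, Aldh1a2, Aldh1a3 and Adh7 passed it among aged mice in mouse 1 alone, and Hsd17b2 and Hsd17b14 in mouse 3 alone.

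**Figure D5:**
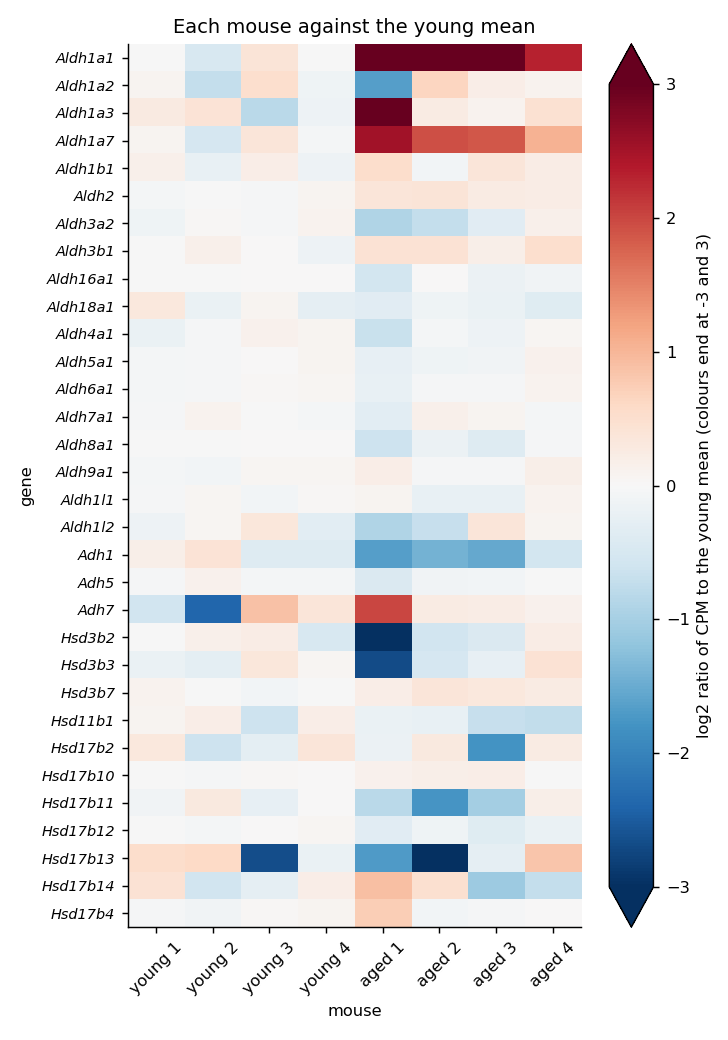
Colours give the log2 ratio of each mouse's CPM to the young mean, red above and blue below, for the 32 members (rows) in the 8 mice (columns). Aldh1a1 and Aldh1a7 are red in all 4 aged mice, while the strong blue of Hsd3b2 and Hsd3b3 stands in aged mouse 1.

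The remaining 10 members had too few counts for a change to be given. Hsd3b6, Hsd17b3 and Hsd17b6 had 0 counts in every library, which allows up to 0.151 to 0.202 CPM per library. Adh4 had 4 counts in all and Hsd3b5 3 counts. Aldh3a1, the enzyme abundant in cornea, had 149, 14, 2 and 1 counts in aged mice 1 to 4 and 1 or 2 in each young mouse, and Aldh3b2 had 50, 17, 2 and 6 counts in aged mice and 5 to 14 in young mice. Both were highest in aged mouse 1, the library that stood apart from the others, and the cause was not tested. Hsd3b1 had 1 to 13 counts in aged and 0 to 2 in young mice, and Hsd17b1, which makes oestradiol, 1 to 13 and 5 to 9. Hsd3b4 had 44 counts in aged mouse 2 and in young mouse 4 and 1 to 4 in the others, and all its windows lay inside a near-identical copy elsewhere in the genome.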

How the data were processed

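The authors deposited raw counts per gene for 8 libraries, without normalization. They depleted ribosomal RNA, sequenced paired ends on an Illumina HiSeq instrument, aligned the reads with TopHat2 to UCSC mm9, and ran HTSeq-count with its reverse-strand setting over the RefSeq annotation. The submitters' processing notes also name CASAVA 1.8.2 and SAMtools, and versions of the other tools are not given in the sources used here. The methods give a mean age of the aged mice that differs from the labels, and the labels were used. The joint table of counts was used, and 0 of its values differed from the tables of single libraries. Lines that name no gene were left out: pairs on no gene were 26.6% ± 3.46 of aged and 22.7% ± 2.19 of young libraries (SD, n = 4 each, two-sided exact permutation test, p = 0.143). A library was made from each mouse, so p-values measure the spread between animals.

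Counts were analysed in R 4.3.3 with edgeR 4.0.16: TMM factors, filterByExpr (minimum count 10), quasi-likelihood F test over all 8 libraries with no covariate, and Benjamini-Hochberg adjustment over 13944 genes. The thresholds for a call (fold change over 1.5, adjusted p under 0.05) were those of the study, without its FPKM criterion. Standard errors were the log2 fold change divided by the square root of F. The study's DESeq was not run. Scripts were tested on simulated data. Coordinates and exon lengths came from GENCODE M1 on NCBIM37, copies from BLAST 2.17.0 (98% identity over at least 100 bases), and upstream sequences from RefSeq (GRCm38.p6).

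The members, the gene lists and the tests were chosen with earlier results of these data known. Every member was named. Values in every mouse were given for called members, for members whose groups did not overlap with an unadjusted p below 0.05, and for the 5 highest members by level per length in young mice. In each pathway list the called genes were named, or the 2 with the smallest p. Values of other members in every mouse were added after the data were seen. Alternatives were other scalings, other filters on low counts, DESeq2 1.42.0, limma-voom (limma 3.58.1), robust fitting, other thresholds, the replicate number as a block, and each mouse left out in turn. The 95% intervals of log2 fold changes come from the edgeR fit and include the spread between mice. The floor of 3 counts covers counting error only.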

Additional observations from a re-analysis of the deposited data

Results flagged for a closer look

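Within each group of 4 mice, the gap of the highest or lowest mouse to its neighbour was divided by the range of the group and set against Dixon's critical value. Chance flags about 1 in 20 groups, and 10 of 104 groups passed. Among members, aged mouse 4 was far above the other aged mice for Adh1 (0.846, at 345 CPM), and aged mouse 1 was far above them for Aldh1a3 (0.987, at 32.1 CPM), Adh7 (0.968, at 2.21 CPM) and Hsd17b4 (0.910, at 464 CPM). In the young group, mouse 2 was highest for Adh5 (0.931, at 192 CPM) and mouse 3 lowest for Hsd11b1 (0.837, at 58.7 CPM). Among pathway genes, aged mouse 4 was highest for Ttr (0.958, at 23.3 CPM) and young mouse 3 for Ftcd (0.858, at 32.4 CPM). The summed lymphocyte and plasma cell markers were highest in aged mouse 3 (0.941, at 102 CPM), and the summed adrenal cortex markers were lowest in young mouse 2 (0.841, at 57.9 CPM).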

How the results depend on the processing

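With 4 mice a group, the calls depended on single mice. Aldh1a1 kept its direction in all 18 alternatives with log2 fold changes from 3.02 to 3.74 (adjusted p from 2.53e-17 with DESeq2 to 0.0633 with edgeR), and Aldh1a7 with 1.67 to 2.14 (adjusted p from 2.88e-08 with DESeq2 to 0.102 with edgeR). Leaving out single mice gave 0 to 2 members called higher, 0 to 3 called lower, 8 to 733 of all genes and 0 to 15 pathway genes. No member was called higher after removal of young mouse 1, 3 or 4, Aldh1a1 alone after removal of young mouse 2, and 3 members were called lower after removal of aged mouse 4 (Adh1, Aldh3a2 and Hsd17b11). For aged mice 1, 2, 3 and 4 left out in turn, 444, 119, 115 and 733 of all genes were called, and for young mice 1, 2, 3 and 4, 8, 35, 14 and 12. Members called lower came to 1 (Adh1) for library size only, DESeq2, limma-voom and an adjusted p below 0.1. All genes called came to 488 for library size only, 873 for DESeq2, 483 for limma-voom, 165 at a fold change above 2 and 770 at an adjusted p below 0.1, beside 287. Pathway genes called came to 8 for library size only, 16 for DESeq2 and 14 at an adjusted p below 0.1, beside 4. The share of calls that were higher was 56.8%, but 75.4% for library size only. The cause was not tested. With the replicate number as a block, 130 of all genes, 2 pathway genes (Stra6 and Kynu), 2 members higher and 0 lower were called, and Ttr (edgeR adjusted p = 0.0531) and Lrat (0.0990) were not. Same-numbered mice deviated together only in part (correlations 0.206, 0.0380, 0.199 and -0.0302), so the numbers were not taken as a pairing, although aged mice 1, 2 and 3 correlated best with the young mouse of their own number and aged mouse 4 with young mouse 2, a hint from the data and not from the design. In 8 members near 0 the sign turned, with sizes up to 0.310 and adjusted p of at least 0.623. The turned log2 fold changes were 0.015 for Aldh7a1 with upper-quartile factors, 0.0535 for Aldh1l1, 0.029 for Aldh5a1, 0.067 for Aldh6a1 and 0.086 for Aldh7a1 with library size only, 0.049 for Aldh7a1 and -0.31 for Hsd17b14 with limma-voom, and -0.084 for Aldh1a2 and -0.0054 for Hsd17b14 with the block. Over the removals of single mice the range was -0.25 to 0.33 for Aldh1a2, -0.090 to 0.018 for Aldh6a1, -0.090 to 0.064 for Aldh7a1, -0.30 to 0.37 for Hsd17b14, -0.35 to 0.13 for Hsd17b2 and -0.029 to 0.29 for Hsd17b4. Depth limits Adh7, Hsd17b13 and the 10 members below 10 counts in 4 libraries.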
